A study of Mus musculus with 57 samples.

Results

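Shh, Ptch1, Hhip, Gli1, Gli2, Gli3, Nkx2-2, Nkx6-1 and Olig2, the genes described here, are the core Hedgehog pathway genes and the transcription factors of ventral neural progenitors. They were chosen by name for these roles, with earlier results of these data known. The Ensembl identifiers of the genes were matched to symbols in GENCODE M21. All 9 were found among the 55450 genes of the count table. Mouse embryonic stem cells of the Sox1-EGFP/FoxA2mCherry line, in which green fluorescence reports Sox1 and red fluorescence reports FoxA2, were differentiated with 1 uM retinoic acid (RA) and sorted by these reporters. The line is 1 clone, made by inserting mCherry at the end of FoxA2 in Sox1-EGFP cells. Sox1-FoxA2- cells were taken at D0, before RA, and all 4 populations (Sox1-FoxA2-, Sox1+FoxA2-, Sox1-FoxA2+, Sox1+FoxA2+) were taken after 2, 4 and 6 days (D2, D4 and D6) in N2B27 medium with RA. The cells were seeded in serum medium with LIF before the change to N2B27 with RA. RA, the basal medium and the loss of LIF thus cannot be told apart in comparisons with D0. For the progeny, the 3 populations positive for at least 1 reporter were sorted at D2, replated in serum medium without LIF but with RA, and collected without a new sort at D4 and D6, that is 2 and 4 days later. Each of the 19 conditions had 3 biological replicates, and each of the 57 libraries (39 sorted, 18 progeny) was made from a small pool of cells.

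The Hedgehog pathway starts with a secreted ligand such as Sonic hedgehog, the product of Shh. The ligand binds the receptor Patched (Ptch1) and so releases the membrane protein Smoothened, and the signal passes through the primary cilium to the Gli transcription factors, of which Gli1 and Gli2 act mainly as activators and Gli3 mainly as a repressor. Ptch1, Hhip and Gli1 are themselves targets of the pathway, and their transcripts are widely used as a readout of it. In the neural tube, Shh from the notochord and floor plate sets the ventral progenitor domains, which are marked by Nkx2-2, Olig2 and Nkx6-1, and FoxA2 marks the floor plate as well as endoderm.

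The libraries held 10170632 to 81845651 counts each (median 36694379), and between 14458 and 27832 genes per library had a count. All values below are counts divided by DESeq2 size factors ("normalized counts"). They are given for replicates 1, 2 and 3 in this order and compare 1 gene between conditions, not 1 gene with another. A mean is given with its SD over 3 libraries (n = 3). The markers of the gates were checked first. Foxa2 had 3241, 3057 and 1646 normalized counts in D2 Sox1-FoxA2+ cells and 4.98, 0 and 0 at D0. In D6 Sox1+FoxA2+ cells it had 0, 728 and 76.6, so that replicate 1 held no Foxa2 count although its gate was FoxA2+. No called difference compares that library, but it shares the fit of Sox1+FoxA2+ cells over time. With only the groups compared in the fit, the called Ptch1 differences of Sox1+FoxA2+ progeny from D2 had adjusted p-values of 0.0131 at D4 and 0.00217 at D6. Sox1, Sox2 and Tubb3 were at 0 in all libraries, so that Sox1 could not be checked in the counts. These 3 genes lie wholly inside other genes of the annotation, and every one of the 6573 genes inside a gene of the same strand and the 6463 inside a gene of the opposite strand only was at 0.

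The same counting touched the genes described here. The annotation (GENCODE M21, GRCm38) places 48.8% of the exon bases of Shh, 62.8% of those of Gli1 and 51.3% of those of Nkx2-2 within the span of another gene, all on the opposite strand. Reads from these bases appear not to have been counted, so that the counts of these 3 genes are too low by an unknown amount and a value of 0 does not show that they were silent. For Hhip and Gli3 the share was under 1.97%, and for Ptch1, Gli2, Nkx6-1 and Olig2 it was 0. A count over whole gene spans would also include reads from introns, for all 9 genes. The spans of Gli2, Gli3 and Ptch1 hold 219488, 266792 and 65271 bases, against 6869, 9589 and 14185 exon bases. The share of intron reads in the counts is not known. In each library between 73.6% and 88.1% of the non-zero counts were even numbers, and 289 of the 330 non-zero values of the 9 genes (87.6%) were even, as when both reads of a pair are counted.

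Ptch1, Hhip, Gli2 and Gli3 had counts in all 57 libraries. Gli1 had a count in 39 libraries, Nkx6-1 in 23, Nkx2-2 in 15, Olig2 in 14 and Shh in 11, as the map of the genes by library shows.

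**Figure D1:**
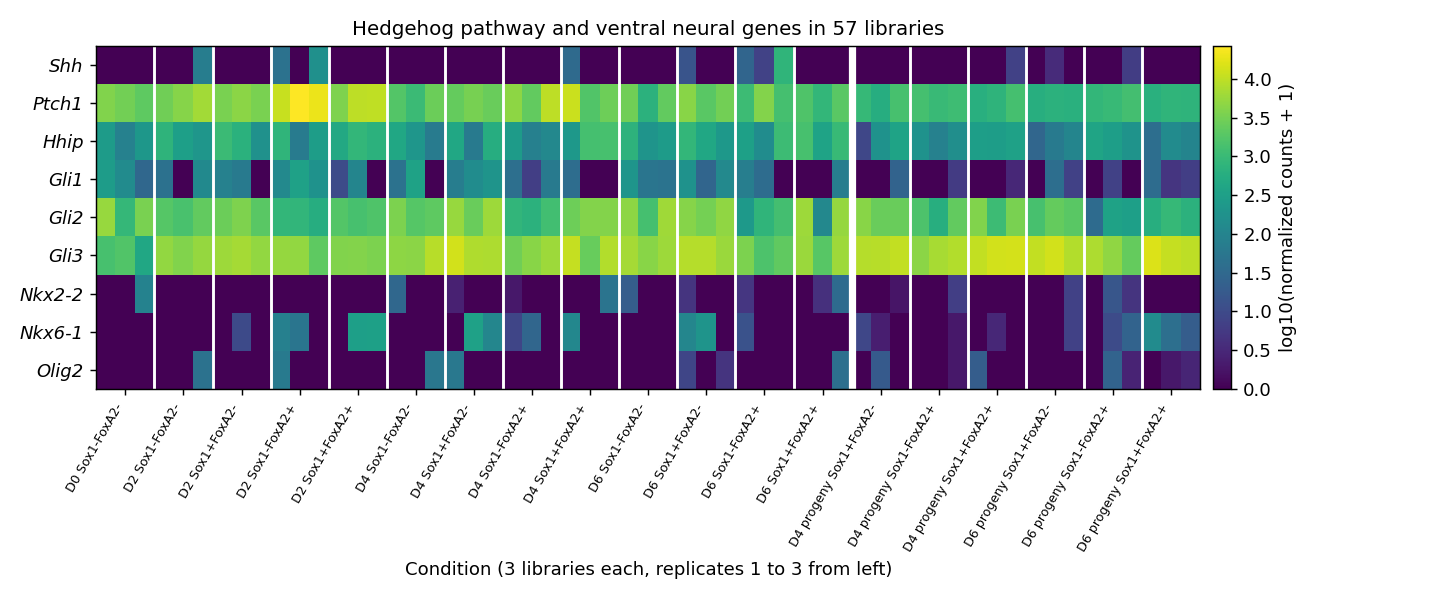
Each column is 1 of the 57 libraries, grouped by condition, each row is 1 gene, and the colour gives log10 of normalized counts plus 1. Ptch1, Hhip, Gli2 and Gli3 have counts in every library, whereas Shh has counts in 11 and Nkx6-1 in none of the 12 Sox1-FoxA2- libraries.

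Differences between conditions were tested gene by gene with the quasi-likelihood test of edgeR, adjusted after Benjamini and Hochberg, fitted over all genes, and a difference is called here when the adjusted p was under 0.05. Over 42 comparisons the 9 genes gave 267 tests, and 13 of them were called, 3 higher and 10 lower in the condition named first, while 1.13% of the tests of all genes were called. All 13 calls belonged to Ptch1 (9), Gli2 (2) and Gli3 (2). In none of the 13 did the ranges of the 3 libraries on each side overlap, and all 13 were also called by DESeq2. Neither is independent support, because the 13 were picked by a small adjusted p in the same counts. DESeq2 also called more tests of the 9 genes in most kinds of comparison. The share of all genes whose libraries did not overlap was not counted for any comparison. Because the samples are bulk RNA, fewer cells that express a gene and less RNA per cell cannot be told apart in any of these differences. For differences not called, fits without 1 library are mostly given where the adjusted p fell to about 0.05 or lower. Such fits were picked after the result and do not make a difference called.

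By kind of comparison, Sox1-FoxA2+ against Sox1+FoxA2- cells gave 2 calls in 29 tests of the 9 genes, where 2.05% of all tests were called. Sox1+FoxA2+ cells against either single-positive population gave 0 calls in 58 tests (16 at an unadjusted p under 0.05, 6 called by DESeq2), where 0.605% of all tests were called. Of all 218568 tests there, 20009 had an unadjusted p under 0.05 by edgeR. Sox1+FoxA2- against Sox1-FoxA2- cells gave 0 calls in 20 tests (3 at an unadjusted p under 0.05, 1 called by DESeq2, Nkx6-1 at D4), and 0.0% of all 67518 tests were called. Of these 67518, 2525 had an unadjusted p under 0.05 by edgeR. The share of all tests called by DESeq2 is not given here. Time in sorted cells gave 4 calls in 52 tests against 1.46% of all tests. Progeny against the D2 cells they came from gave 6 calls in 40 tests against 2.04% of all tests, and progeny against sorted cells of the same day gave 1 in 40 against 1.14%.

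Whether these differences themselves differed was tested in 2 further ways. Set between progeny and sorted cells, the Sox1-FoxA2+ to Sox1+FoxA2- difference gave 0 calls in 14 tests (0 at an unadjusted p under 0.05, 0 by DESeq2), where 0.00993% of all tests were called. Of all 50372 tests there, 4046 had an unadjusted p under 0.05 by edgeR. The change of a difference between populations from D2 to D6, a comparison added after the data were seen, gave 0 calls in 14 tests (3 at an unadjusted p under 0.05, 2 by DESeq2), where 0.0526% of all tests were called. Here 3364 of all 49398 tests had an unadjusted p under 0.05 by edgeR.

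Shh (ENSMUSG00000002633.4, chr5:28456815-28467256, minus strand) encodes the ligand. It had 950 counts in all over the 57 libraries and was at 0 in 46 of them. The highest values stood in Sox1-FoxA2+ cells, with 45.2, 0 and 169 normalized counts at D2 and 26.5, 6.55 and 781 at D6, and 546 of the 950 counts came from D6 replicate 3 alone. The other libraries with a count were D2 Sox1-FoxA2- replicate 3 (73.9 normalized counts), D4 Sox1+FoxA2+ replicate 1 (33.2), D6 Sox1+FoxA2- replicate 1 (12.9) and 3 progeny libraries with at most 6.24. Shh could be tested in 17 of the 42 comparisons and was called in none. A value of 0 allows up to 3 counts, or between 0.0367 and 0.295 CPM (counts relative to the library total) depending on the library's total, and this limit covers counting error only. It takes each count as independent, and where both reads of a pair were counted the limit is too low.

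Ptch1 (ENSMUSG00000021466.12, chr13:63508328-63573598, minus strand) encodes the receptor and carried most of the called differences. The sequence before its start is shown because 9 of the 13 calls belong to it. The window holds the 250 bases upstream of the RefSeq start on the minus strand, chr13:63565736-63565985 in GRCm38.p6, which lies inside the longer GENCODE span. Capitals mark the 41 CG dinucleotides, against a median of 6 over 32851 windows of the same length.
Ptch1: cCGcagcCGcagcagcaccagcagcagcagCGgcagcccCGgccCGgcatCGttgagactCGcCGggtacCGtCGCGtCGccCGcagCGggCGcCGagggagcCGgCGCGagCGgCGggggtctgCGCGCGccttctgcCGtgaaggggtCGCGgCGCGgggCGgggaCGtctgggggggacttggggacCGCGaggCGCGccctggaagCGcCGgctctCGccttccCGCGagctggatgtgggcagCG

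Of its bases 78.4% are G or C, where the median window has 52.4%. The binding sequence of the Gli factors, GACCACCCA, was searched on both strands and was in none of the 7 windows that RefSeq gave for the 9 genes. It was in 0.225% of all windows. Its core CCACCCA, which the longer sequence contains, was in the window of Olig2 only and in 8.11% of all windows. The exact letters searched for the retinoic acid response element, a direct repeat of AGGTCA with a spacer of 5, were in none of the 7 windows. They were in 0.00913% of all windows. With so few matches anywhere, the absence of this repeat and of the full Gli sequence from 7 windows carries no information.

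At D2, Ptch1 stood highest in Sox1-FoxA2+ cells, with 11564, 26742 and 20092 normalized counts (mean 19466 ± 7608). Sox1+FoxA2+ cells had 3676, 9789 and 9954, Sox1+FoxA2- cells 3397, 4633 and 3462 and Sox1-FoxA2- cells 2936, 4269 and 6432. The D0 libraries held 3887, 3086 and 2166. Every D2 Sox1-FoxA2+ library was thus above every other D0 and D2 library, and the mean there was the highest of the 19 conditions, with no overlap with the next condition, D2 Sox1+FoxA2+. The other 17 pairs of neighbours in the order of the 19 means overlapped.

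From D0 to D2, Ptch1 rose in Sox1-FoxA2+ cells (log2 fold change 2.70, standard error 0.53, 6.52-fold, adjusted p = 0.00598, the quasi-likelihood test of edgeR, adjusted after Benjamini and Hochberg), in a comparison where 4.05% of all genes were called. The same comparison gave 1.33 in Sox1+FoxA2+ cells (adjusted p = 0.261), 0.36 in Sox1+FoxA2- cells (adjusted p = 0.647) and 0.60 in Sox1-FoxA2- cells (adjusted p = 0.563). These 4 comparisons share the D0 libraries, and RA, the change of medium and the loss of LIF cannot be told apart in them. At D2, Sox1-FoxA2+ set against Sox1+FoxA2- cells gave a Ptch1 log2 fold change of 2.38 (standard error 0.40) with no overlap between libraries, but the adjusted p was 0.174 by edgeR's test, in a comparison with 1 called gene out of 20369, against 2.9e-07 by DESeq2's Wald test. With Sox1-FoxA2+ replicate 1 left out, edgeR's adjusted p was 0.0373.

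**Figure D2:**
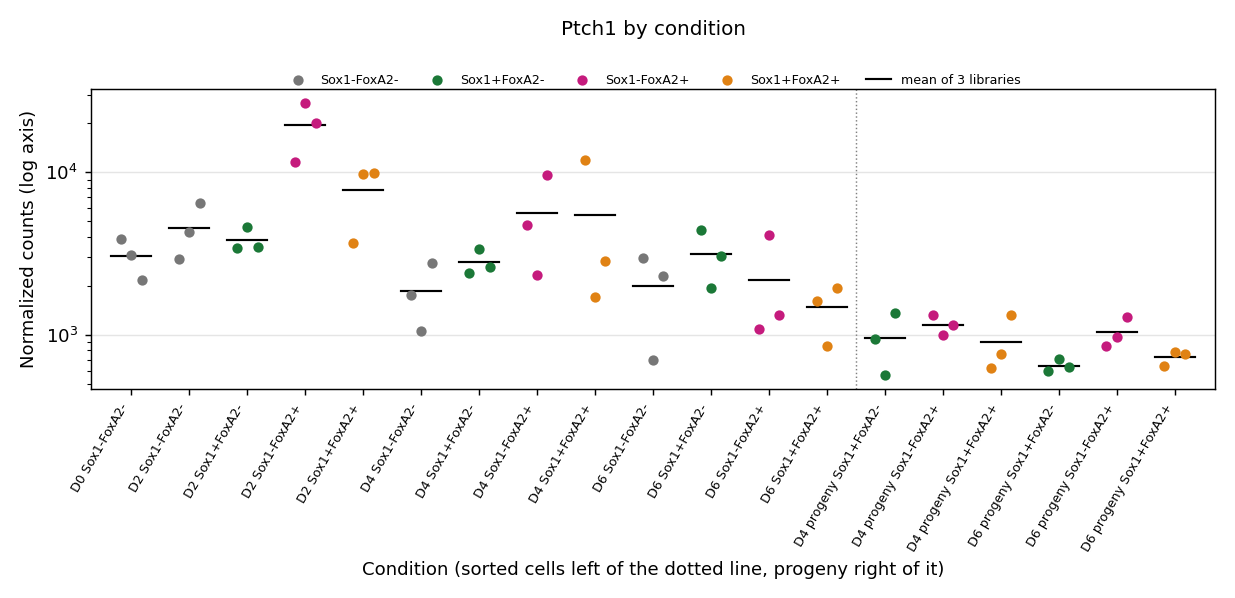
Each point is the Ptch1 level of 1 library in normalized counts on a log axis, coloured by sorted population, and the bar is the mean of the 3 libraries of a condition. The D2 Sox1-FoxA2+ libraries lie between 11564 and 26742, and the 18 progeny libraries right of the dotted line lie between 563 and 1353.

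After D2 the Ptch1 level of Sox1-FoxA2+ cells was 4718, 2339 and 9679 at D4 and 1091, 4098 and 1331 at D6. From D2 to D6 it fell (log2 fold change -3.22, standard error 0.54, adjusted p = 0.00277, 9.29-fold, edgeR), where 1.9% of all genes were called. Sox1+FoxA2+ cells had 11845, 1706 and 2828 at D4 and 1610.0, 858 and 1946 at D6, and their change from D2 to D6 missed the threshold (log2 fold change -2.66, standard error 0.59, adjusted p = 0.0565, and 0.208 without the D6 replicate that lacked Foxa2, and 0.0276 without D2 replicate 1), although the libraries did not overlap. Sox1+FoxA2- cells had 4444, 1941 and 3068 at D6, which overlapped their D2 values (log2 fold change -0.51, adjusted p = 0.554). At D6 the Sox1-FoxA2+ and Sox1+FoxA2- libraries overlapped too (log2 fold change -0.33, adjusted p = 0.914). From D2 to D6 the log2 difference of Ptch1 between these populations changed by -2.75 (standard error 0.68, adjusted p = 0.158, edgeR), and by -3.67 (adjusted p = 5.9e-04) without D6 Sox1-FoxA2+ replicate 2.

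In the progeny Ptch1 lay between 563 and 1353 normalized counts, below each of the 9 libraries of the D2 populations they came from, which held 3397 to 26742. Sox1-FoxA2+ progeny had 1316, 993 and 1149.7 at D4 and 853, 964 and 1283 at D6. Sox1+FoxA2- progeny had 939, 563 and 1353 and 597, 707 and 633, and Sox1+FoxA2+ progeny 626, 756 and 1323 and 644, 784 and 760.4. Ptch1 was the only one of the 9 genes called in these comparisons, and it was lower in all 6. Sums of cell type markers moved too. Summed endoderm markers (8 genes) were 9000.4 to 34957 normalized counts in D2 Sox1-FoxA2+ cells and 176759 to 279664 in their D4 progeny, and summed neural progenitor genes (7, with Sox1 and Sox2 at 0) were 1317 to 8073 in D2 Sox1+FoxA2- cells and 14043 to 38378 in their D4 progeny. For Sox1+FoxA2+ cells the endoderm sum was 6117 to 11493 at D2 and 14363 to 23736 in D4 progeny, and the neural sum 4948 to 7101 and 11718 to 28951. Lama1 gave most of the endoderm counts (5760698 over all libraries) and Nes most of the neural counts (364619). In the progeny comparisons with D2 cells, where 2.04% of all tests were called, 4 of 48 tests of endoderm genes were called, all higher. Of 22 tests of neural progenitor genes there, 1 was called higher and 1 lower. The part of these markers in the fall of Ptch1 was not tested.

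At D4 the fall from D2 was largest in the progeny of Sox1-FoxA2+ cells (log2 fold change -4.09, 17.0-fold, adjusted p = 4.0e-04, 1.93% of all genes called). It was -3.07 in Sox1+FoxA2+ progeny (adjusted p = 0.00925, 0.754% called) and -1.99 in Sox1+FoxA2- progeny (adjusted p = 0.00336, 1.08% called). Whether these falls differ from each other was not tested, and Sox1-FoxA2+ cells also started from the highest level.

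By D6 the log2 fold change from D2 was -4.27 in Sox1-FoxA2+ progeny (19.2-fold, adjusted p = 1.3e-04, 4.15% of all genes called), -3.36 in Sox1+FoxA2+ progeny (adjusted p = 0.00305, 1.7% called) and -2.55 in Sox1+FoxA2- progeny (adjusted p = 1.2e-04, 2.81% called). D4 and D6 progeny share the D2 libraries, so that they are not independent. The calls in D4 progeny depended on single libraries in Sox1+FoxA2+ progeny (adjusted p = 0.0782 without progeny replicate 1 and 0.0841 without progeny replicate 2) and in Sox1+FoxA2- progeny (0.0511 without progeny replicate 2).

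Against sorted cells of the same day, the progeny of Sox1+FoxA2- cells had less Ptch1 at D6 (log2 fold change -2.04, standard error 0.37, adjusted p = 0.00152, 3.91% of all genes called), with values of 597, 707 and 633 against 4444, 1941 and 3068. With all 57 libraries in 1 fit the adjusted p of this comparison was 0.0676, and that of Sox1+FoxA2- progeny at D4 against D2 was 0.129. At D4 the 3 comparisons of progeny with sorted cells gave log2 fold changes of -2.45 in Sox1+FoxA2+ cells (adjusted p = 0.0516), -1.47 in Sox1+FoxA2- cells (adjusted p = 0.0641) and -2.22 in Sox1-FoxA2+ cells (adjusted p = 0.15), each with no overlap between libraries. The first of these rested on single libraries, with -1.05 (adjusted p = 0.473) when sorted replicate 1 was left out and -2.94 (adjusted p = 0.00516) when sorted replicate 2 was. In Sox1+FoxA2- cells the adjusted p was 0.0281 without progeny replicate 3. Replating, the change of basal medium and the lack of a new sort cannot be told apart in any comparison of progeny with sorted cells. Progeny set against D2 cells also differ from them by 2 or 4 more days of culture.

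**Figure D3:**
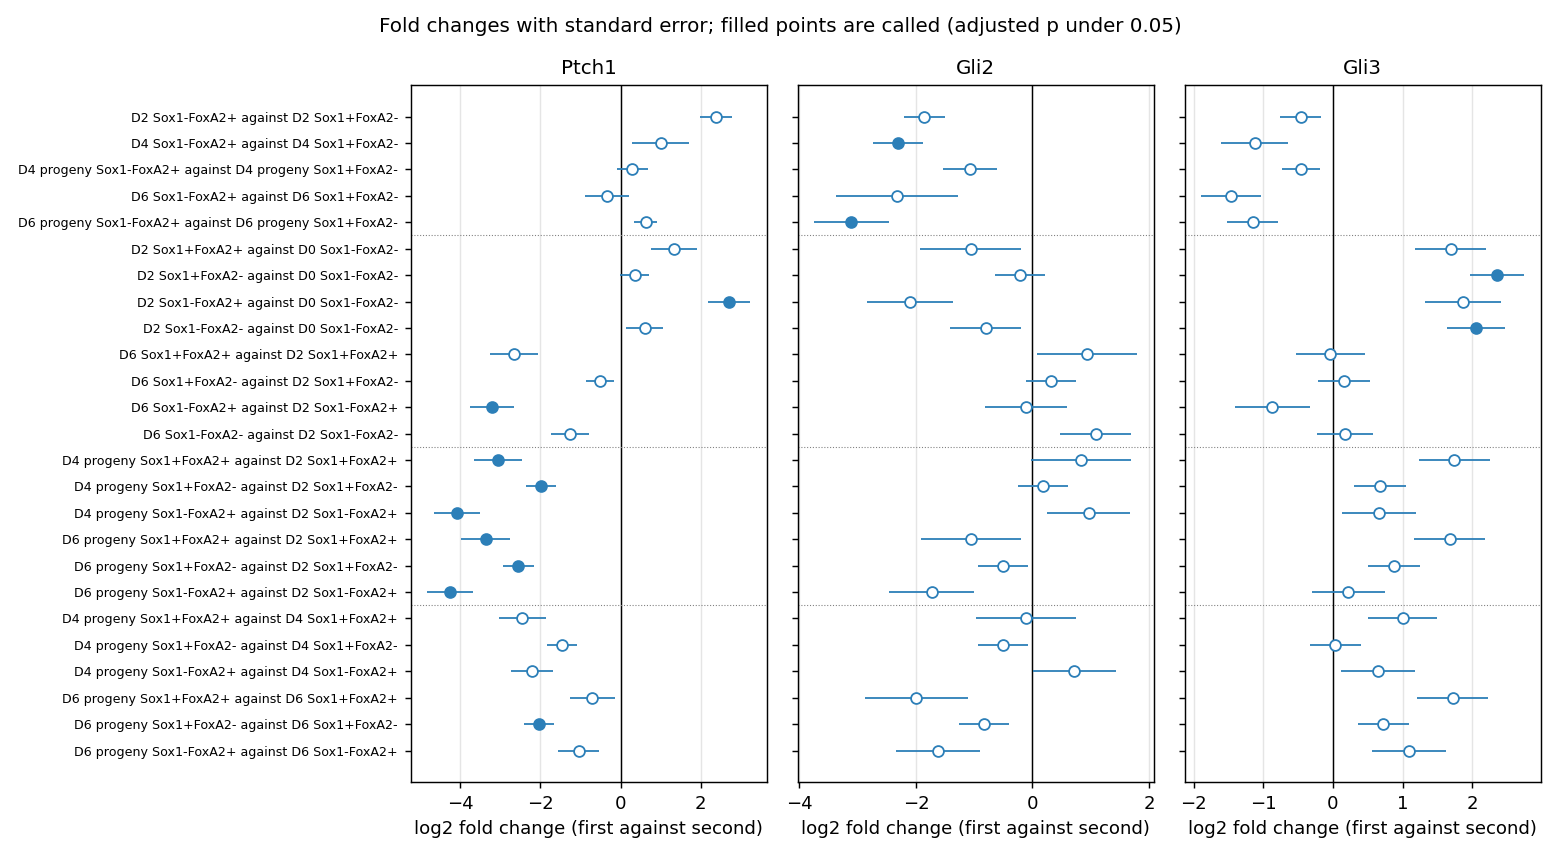
Log2 fold changes of Ptch1, Gli2 and Gli3 in 25 comparisons of the first condition named against the second, with standard errors as bars and filled points for an adjusted p under 0.05 (edgeR). All 6 comparisons of progeny with D2 cells are filled and negative for Ptch1, and the Gli2 points of Sox1-FoxA2+ against Sox1+FoxA2- cells are all negative.

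Hhip (ENSMUSG00000064325.4, chr8:79965851-80058006, minus strand) encodes a membrane protein that binds Hedgehog ligands and keeps them from the receptor. It was tested in all 42 comparisons and called in none, and its values varied widely between replicates. In D2 Sox1-FoxA2+ cells, where Ptch1 was highest, Hhip had 782, 67.8 and 285 normalized counts, against 1034, 684 and 172 in Sox1+FoxA2- cells. The highest values were in Sox1+FoxA2+ cells, with 226, 1329 and 1361 at D4 and 1358, 373 and 951 at D6. In progeny all 18 libraries lay at or under 388.

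At D6 the Hhip levels of Sox1-FoxA2+ progeny, 388, 308 and 185, lay above those of Sox1+FoxA2- progeny, 28.0, 62.4 and 105, with no overlap (log2 fold change 2.17, standard error 0.79, adjusted p = 0.135, edgeR, and adjusted p = 0.0208 by DESeq2). In Sox1+FoxA2- cells the D6 progeny had a log2 fold change of -3.29 from D2 (adjusted p = 0.147), and in Sox1+FoxA2+ cells of -2.82 (adjusted p = 0.233), again without overlap between libraries. All 18 pairs of neighbours in the order of the 19 condition means overlapped.

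Gli1 (ENSMUSG00000025407.7, chr10:127329882-127341974, minus strand) encodes the Gli activator whose own transcription depends on the pathway. It was low, with at most 348 normalized counts in a library. Among sorted cells 30 of 39 libraries held a count, against 9 of 18 in the progeny, where no library exceeded 38.7. The D0 libraries, which had not received RA, held 274, 133 and 28.9. At D2 the Sox1-FoxA2+ libraries held 121, 344 and 182, above the Sox1+FoxA2- libraries with 87.1, 66.1 and 0. At D4 the order was the opposite, with 40.8, 5.64 and 65.1 in Sox1-FoxA2+ cells and 74.1, 142 and 195 in Sox1+FoxA2- cells. Neither difference was called (log2 fold change 2.12 at D2 and -1.83 at D4, adjusted p = 1 at both days). In the progeny of Sox1-FoxA2+ cells Gli1 had 0, 0 and 4.79 at D4 and 0, 6.16 and 0 at D6, against 121, 344 and 182 at D2, and edgeR did not call this (adjusted p = 0.278 and 0.193) while DESeq2 did (adjusted p = 0.00554 and 0.00275). Gli1 was tested in 36 comparisons and called in none.

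Gli2 (ENSMUSG00000048402.14, chr1:118834132-119053619, minus strand) encodes the main activator of the pathway, and Gli3 (ENSMUSG00000021318.15, chr13:15463235-15730026, plus strand) encodes the factor that mostly represses targets when no ligand is bound. Their upstream windows are shown because these genes carry the other 4 calls. The Gli2 window, chr1:119053620-119053869 on the minus strand, directly precedes the GENCODE span, and the Gli3 window, chr13:15463473-15463722 on the plus strand, begins within it. Both come from RefSeq on GRCm38.p6, and capitals mark the 22 CG dinucleotides of Gli2 and the 34 of Gli3.
Gli2: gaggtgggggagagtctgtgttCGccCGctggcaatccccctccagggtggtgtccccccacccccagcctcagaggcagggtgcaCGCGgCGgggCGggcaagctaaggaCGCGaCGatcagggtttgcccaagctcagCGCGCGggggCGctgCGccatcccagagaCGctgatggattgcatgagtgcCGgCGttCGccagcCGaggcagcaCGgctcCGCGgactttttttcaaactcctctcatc
Gli3: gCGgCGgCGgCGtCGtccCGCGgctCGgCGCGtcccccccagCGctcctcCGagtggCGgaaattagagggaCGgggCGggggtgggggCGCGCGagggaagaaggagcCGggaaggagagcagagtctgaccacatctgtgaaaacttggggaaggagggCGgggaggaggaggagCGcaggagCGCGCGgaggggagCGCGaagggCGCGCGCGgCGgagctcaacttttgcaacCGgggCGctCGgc

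As in the Ptch1 window, bases G and C predominated, with 67.2% in Gli2 and 72.8% in Gli3, and neither held the exact letters searched for Gli factors or for the retinoic acid response element. The windows of Hhip, Nkx6-1, Olig2 and Nkx2-2 had 28, 30, 22 and 8 CG dinucleotides. RefSeq windows of Shh and Gli1 were not used here.

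In all 5 comparisons of Sox1-FoxA2+ with Sox1+FoxA2- cells, over both arms, every Sox1-FoxA2+ library had less Gli2 than every Sox1+FoxA2- library, and 2 of the 5 differences were called. The share of all genes with such a separation was not counted, so that the separation itself has no yardstick here. At D2 the Sox1-FoxA2+ libraries held 867, 832 and 561 normalized counts and the Sox1+FoxA2- libraries 2685, 3675 and 1963. At D4 the values were 823, 702 and 1235 against 5492, 2604 and 6088. At D6 they were 242, 773 and 1262 against 4161, 3161 and 4840.0. The difference was called at D4 (log2 fold change -2.30, standard error 0.42, adjusted p = 0.0102, 4.94-fold, edgeR), where 0.266% of all genes were called. It missed the threshold at D2 (log2 fold change -1.85, adjusted p = 0.23) and at D6 (-2.32, adjusted p = 0.371).

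In D4 progeny Gli2 had 1539, 592 and 2326 in Sox1-FoxA2+ and 4403, 2575 and 2578 in Sox1+FoxA2- progeny (log2 fold change -1.07, adjusted p = 0.411). No label pairs these libraries. They were taken as paired by replicate number because their deviations from group means correlated in these same data (0.324 to 0.562). An edgeR fit with the replicate block gave an adjusted p of 0.0177. In D6 progeny the values were 34.5, 352 and 311 against 1399, 2426 and 1949. This difference was called (log2 fold change -3.11, standard error 0.65, adjusted p = 0.013, 8.61-fold), in the comparison with the most calls, where 6.91% of all genes were called. The mean of D6 Sox1-FoxA2+ progeny, 232 ± 173, was the lowest of the 19 conditions and did not overlap the next one, D6 Sox1+FoxA2+ progeny.

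Both Gli2 calls depended on single libraries. At D4 the adjusted p was 0.112 with Sox1-FoxA2+ replicate 1 left out, 0.0855 with replicate 2 of that population left out and 0.0507 with Sox1+FoxA2- replicate 1 left out, and it was 0.293 with all 57 libraries in 1 fit. In D6 progeny it was 0.0637 without Sox1+FoxA2- progeny replicate 2, 0.0503 without Sox1+FoxA2- progeny replicate 3 and 0.0584 without Sox1-FoxA2+ progeny replicate 3. Markers of extraembryonic endoderm moved with these differences. Of 8 such genes, Foxa2 among them, 3 were called higher at D4 and 7 in D6 progeny. Their summed level was 189153 to 472419 normalized counts in Sox1-FoxA2+ and 3163 to 6217 in Sox1+FoxA2- cells at D4, and 353022 to 741471 and 11996 to 28521 in D6 progeny. The part of these markers in the Gli2 differences was not tested.

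Before RA, at D0, Gli2 had 5640.4, 885 and 3469 normalized counts, above all 3 D2 Sox1-FoxA2+ libraries. The log2 fold change from D0 to D2 in Sox1-FoxA2+ cells was -2.10 and was not called (adjusted p = 0.127, and 0.0446 without D0 replicate 2). Sox1-FoxA2- cells had 1842, 1436 and 2298 at D2, 3623, 1786 and 2127 at D4 and 4709, 1333 and 6371 at D6, and the highest mean of the 19 conditions was that of D4 Sox1+FoxA2- cells, 4728 ± 1864.

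Sox1+FoxA2+ cells had Gli2 levels of 1727, 1376 and 1599 at D2, 2804, 3957 and 4054 at D4 and 5953, 115 and 5337 at D6. At D2 they lay between the Sox1-FoxA2+ and Sox1+FoxA2- libraries, and at D4 and D6 they overlapped the Sox1+FoxA2- libraries. The value of 115 in D6 replicate 2 lay below the 3 D6 Sox1-FoxA2+ libraries, while the other replicates lay above them. Against Sox1-FoxA2+ cells the log2 fold change was 1.65 at D4 (adjusted p = 0.0835), with no overlap between libraries. In D6 progeny Sox1+FoxA2+ cells had 605, 915 and 702, between the Sox1-FoxA2+ and the Sox1+FoxA2- progeny and without overlap with either. The log2 fold change there was 1.67 against Sox1-FoxA2+ progeny (adjusted p = 0.185, 0.05 without Sox1-FoxA2+ progeny replicate 1, and 0.0496 with the replicate block, whose numbers were taken to pair these libraries) and -1.44 against Sox1+FoxA2- progeny (adjusted p = 0.507). The block of this fit also covered Sox1-FoxA2+ with Sox1+FoxA2- progeny, which were not taken as paired.

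**Figure D4:**
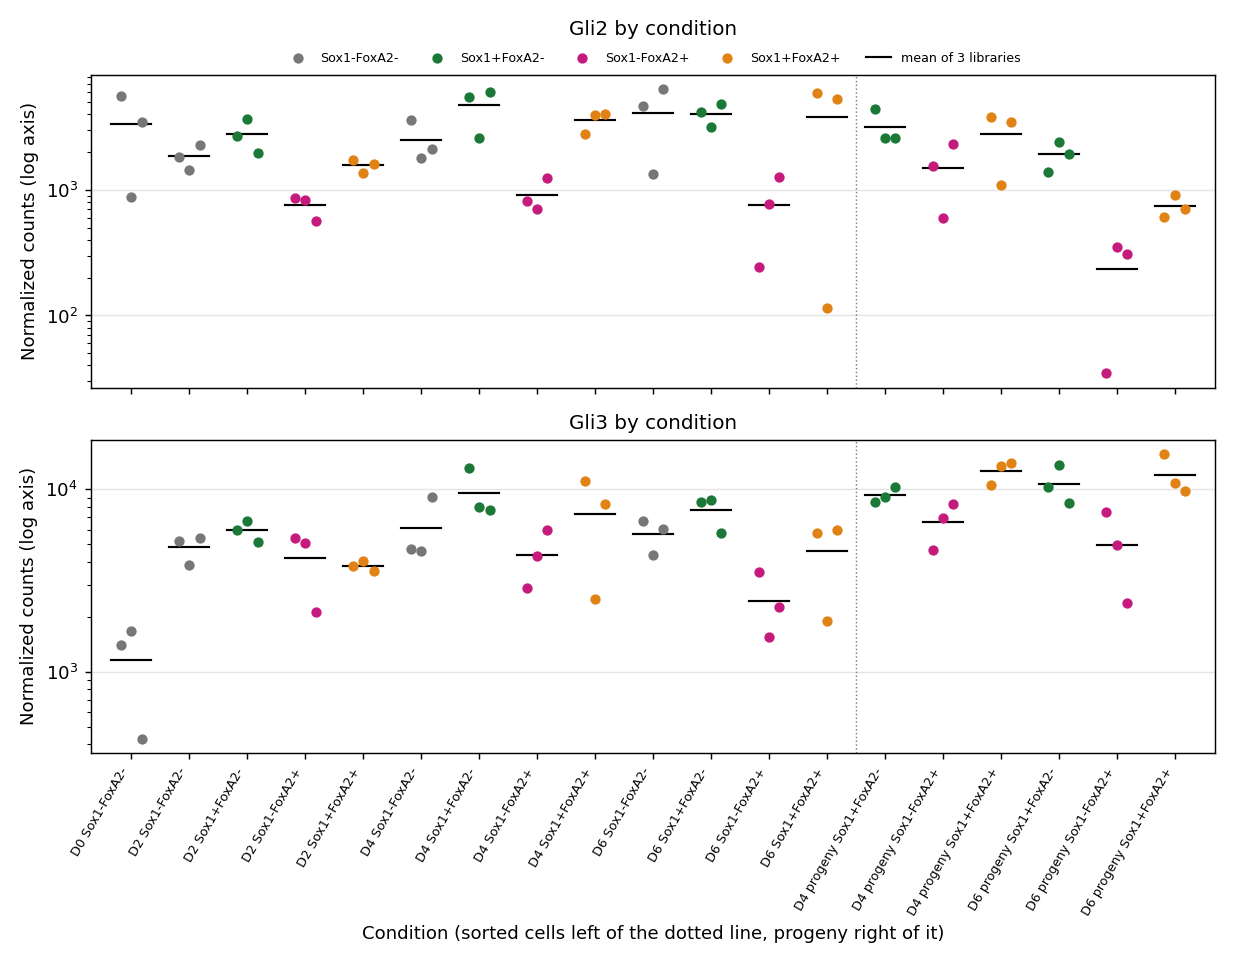
Each point is the level of 1 library in normalized counts on a log axis, Gli2 above and Gli3 below, with a bar for the mean of the 3 libraries of a condition. Within a day and arm, every Sox1-FoxA2+ point of Gli2 lies below every Sox1+FoxA2- point, and the mean of Gli3 is lowest at D0, with libraries between 430 and 1669 that overlap those of D6 Sox1-FoxA2+ cells. How many other genes are separated like Gli2 was not counted.

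Both called differences of Gli3 were rises from D0 to D2. The D0 libraries held 1396, 1669 and 429.9 normalized counts, and all 12 libraries of D2 lay above them, with 5957, 6713 and 5154 in Sox1+FoxA2-, 5219, 3865 and 5428 in Sox1-FoxA2-, 5406, 5079 and 2130.4 in Sox1-FoxA2+ and 3813, 4061 and 3543 in Sox1+FoxA2+ cells. The rise was called in Sox1+FoxA2- cells (log2 fold change 2.36, standard error 0.39, adjusted p = 6.9e-04, 5.12-fold, edgeR), where 2.13% of all genes were called. It was also called in Sox1-FoxA2- cells (log2 fold change 2.05, standard error 0.42, adjusted p = 0.0158, 4.15-fold), where 1.93% were called. In Sox1-FoxA2+ cells the log2 fold change was 1.86 (adjusted p = 0.0665, and 0.0326 without D2 replicate 3) and in Sox1+FoxA2+ cells 1.69 (adjusted p = 0.114, 1.48% of all genes called). The call in Sox1-FoxA2- cells was lost without D2 replicate 1 (adjusted p = 0.0602) and without D2 replicate 3 (0.0502). All 4 comparisons share the D0 libraries, and in them RA cannot be told apart from the change of medium and the loss of LIF.

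From D2 to D6 the log2 fold change of Gli3 in sorted cells lay between -0.87 (Sox1-FoxA2+) and 0.17 (Sox1-FoxA2-), and none was called. The D6 libraries held 3519.9, 1543 and 2261 in Sox1-FoxA2+ cells and 8488, 8735 and 5759 in Sox1+FoxA2- cells, without overlap (log2 fold change -1.47, adjusted p = 0.0938). The libraries were again taken as paired by number, and the adjusted p with the replicate block was 0.0135. That block covered all sorted D6 libraries, also Sox1+FoxA2+ with Sox1-FoxA2+ cells, which were not taken as paired (lowest correlation 9.2e-04). Without a block and without Sox1-FoxA2+ replicate 1 it was 0.0368. At D4 the same difference was -1.12 (adjusted p = 0.881), also without overlap.

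The 3 highest means of Gli3 stood in progeny. Sox1+FoxA2+ progeny had 10529, 13321 and 13951 at D4 and 15555, 10783 and 9743 at D6, and Sox1+FoxA2- progeny had 8466, 9119.9 and 10317 and 10304, 13530.1 and 8356. Sox1-FoxA2+ progeny had 4616, 6978 and 8318 and 7491, 4919 and 2378, without overlap with either of the others on the same day. Sox1+FoxA2+ progeny differed from Sox1-FoxA2+ progeny by 0.84 on the log2 scale at D4 (adjusted p = 0.24, and 0.00502 with the replicate block) and by 1.25 at D6 (adjusted p = 0.0815, and 0.0125 with the block, whose numbers were taken to pair the libraries in both comparisons). At D6 the block also covered Sox1-FoxA2+ with Sox1+FoxA2- progeny, which were not taken as paired. Sox1-FoxA2+ against Sox1+FoxA2- progeny at D6 gave -1.15 (adjusted p = 0.092). Without Sox1-FoxA2+ progeny replicate 1, which had the most Gli3 of its group, the adjusted p at D6 was 0.00737 against Sox1+FoxA2- and 0.00699 against Sox1+FoxA2+ progeny. The library left out was the one nearest to both other groups, and fits without other libraries are not given here. The summed level of 7 neural progenitor genes, of which Sox1 and Sox2 were at 0 in all libraries, was 2678 to 3830.5 in Sox1-FoxA2+, 7625 to 10746 in Sox1+FoxA2+ and 12641 to 22651 in Sox1+FoxA2- progeny at D6, and its part in the Gli3 levels was not tested.

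Nkx6-1 (ENSMUSG00000035187.10, chr5:101658139-101664996, minus strand) encodes a homeodomain factor of ventral neural progenitors, which also acts in the endocrine pancreas. It was at 0 in all 12 Sox1-FoxA2- libraries, where 3 counts correspond to 0.0592 to 0.147 CPM. In the other populations 23 of 45 libraries held a count, and only 1 condition had a count in all 3 of its libraries. Sox1+FoxA2+ cells had 0, 312 and 330.2 normalized counts at D2, 111, 0 and 0 at D4 and 0, 0 and 0 at D6. Sox1+FoxA2- cells had 0, 344 and 107 at D4 and 109, 191 and 0 at D6, and Sox1-FoxA2+ cells had 83.1, 51.1 and 0 at D2. In each of these conditions except D6 Sox1+FoxA2+, libraries at 0 stood beside libraries with at least 51.1 normalized counts. D6 Sox1+FoxA2+ progeny, with 135, 39.9 and 18.9, held counts in all 3 libraries and did not overlap the sorted D6 Sox1+FoxA2+ cells, but the difference was not called by edgeR (adjusted p = 0.339, against 1.5e-08 by DESeq2). All 3 sorted libraries there were at 0, so that the size of this fold change is not defined. Of these sorted libraries, replicate 1 held no Foxa2 count and replicate 2 had the fewest genes with a count of all libraries (14458). Nkx6-1 was tested in 37 comparisons and called in none.

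Olig2 (ENSMUSG00000039830.9, chr16:91225457-91228677, plus strand) encodes the factor of motor neuron and oligodendrocyte progenitors, and Nkx2-2 (ENSMUSG00000027434.11, chr2:147177546-147194243, minus strand) the factor of the domain next to the floor plate. Olig2 had 423 counts over the 57 libraries, with the highest value, 63.2 normalized counts, in D2 Sox1-FoxA2+ replicate 1. It appeared in 7 of the 39 sorted libraries and in 7 of the 18 progeny libraries, with at most 24.7 in the latter. Nkx2-2 had 279 counts and was at 0 in all 9 D2 libraries of the replated populations. Its highest value, 91.0 normalized counts, was in a D0 library, replicate 3, followed by 49.2 in D4 Sox1+FoxA2+ replicate 3. No condition had an Olig2 or Nkx2-2 count above 0 in all 3 libraries. Nkx2-2 could be tested in 8 comparisons and Olig2 in 1, and neither was called.

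A list of 25 other Hedgehog pathway genes was chosen by function, with earlier results of these data known. Among them the largest number of calls stood in Sox1-FoxA2+ against Sox1+FoxA2- progeny at D6, the comparison with 6.91% of all genes called. Of 24 tested, 2 were higher and 6 lower in Sox1-FoxA2+ progeny, and the median log2 fold change of the list was -0.68 against -0.04 over all genes tested. Lrp2, a large endocytic receptor that binds Shh, had 69759, 78749 and 114190.4 normalized counts against 6234, 8478 and 4661 and was higher in Sox1-FoxA2+ progeny (log2 fold change 3.70, standard error 0.33, adjusted p = 1.1e-05). Scube2, a secreted protein that helps release the ligand, was higher too (log2 fold change 4.76, standard error 0.62, adjusted p = 7.2e-04).

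Lower in Sox1-FoxA2+ progeny at D6 was Gas1, a co-receptor of Shh, with 255, 249.6 and 325 normalized counts against 1939, 2575 and 3139 (log2 fold change -3.25, standard error 0.27, adjusted p = 7.5e-06). Smo, which encodes Smoothened, had 789, 1032 and 857 against 2458, 2646 and 2521 (log2 fold change -1.55, standard error 0.25, adjusted p = 0.00103). Kif7, a kinesin of the cilium that acts on the Gli factors, was lower as well (log2 fold change -2.17, standard error 0.40, adjusted p = 0.00297), and so was Scube1 (log2 fold change -2.64, standard error 0.60, adjusted p = 0.0126). Tulp3 and Evc completed the 6. Of the exon bases of Gas1 and Kif7, 23.1% and 20.3% lie in the span of a gene on the opposite strand. The co-receptor Cdon had a log2 fold change of -0.58 (adjusted p = 0.454) and Sufu, which holds the Gli factors back, one of -0.53 (adjusted p = 0.326).

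**Figure D5:**
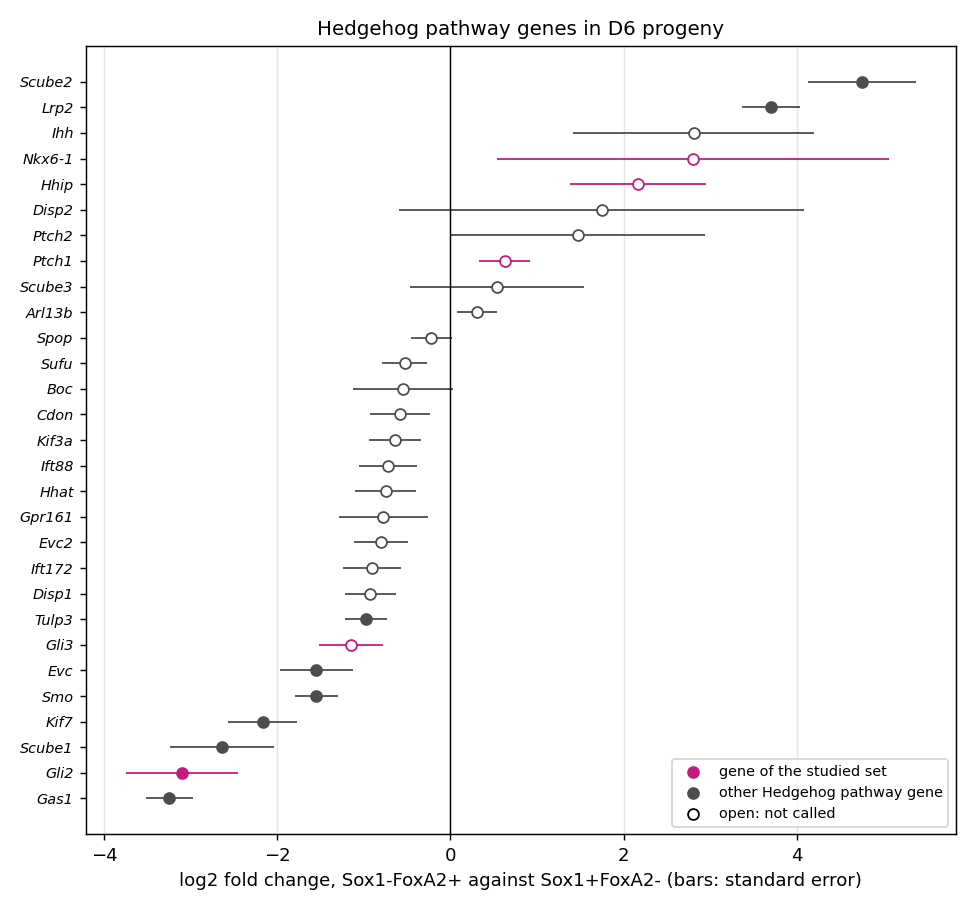
Log2 fold changes with standard errors of Sox1-FoxA2+ against Sox1+FoxA2- progeny at D6 for the tested Hedgehog pathway genes, with the genes of the described set in pink and filled points for an adjusted p under 0.05 (edgeR). Lrp2 and Scube2 are called higher, and Gli2 is called lower together with Gas1, Scube1, Kif7, Smo, Evc and Tulp3.

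In D4 progeny the same comparison, with 1.97% of all genes called, called 4 of these genes, Lrp2 (3.35 on the log2 scale) and Scube2 (4.43) higher and Gas1 (-1.23) and Smo (-1.04) lower in Sox1-FoxA2+ progeny. Among sorted cells Boc, another co-receptor, was lower in the Sox1-FoxA2+ cells of D4 (log2 fold change -3.76, standard error 0.69, adjusted p = 0.0102) and D6 (log2 fold change -3.82, standard error 0.77, adjusted p = 0.00408), and Lrp2 and Scube2 were higher at D6, where 1.32% of all genes were called (2.95 and 3.78). At D6 Sox1+FoxA2+ progeny differed from Sox1-FoxA2+ progeny in 5 genes of the list, in a comparison with 4.63% of all genes called, with Gas1 (2.64), Kif7 (1.97) and Smo (1.08) higher and Scube2 (-3.06) and Lrp2 (-1.26) lower.

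From D0 to D2, Cdon rose in all 4 populations. It had 609.7, 497 and 327 normalized counts at D0 and 4345, 2329.6 and 2902 in D2 Sox1-FoxA2+ cells, where its log2 fold change was 2.73 (adjusted p = 4.4e-04), and it changed by 2.08 to 2.57 in the other populations. Smo rose in Sox1+FoxA2- (1.83, adjusted p = 0.00699) and Sox1-FoxA2+ cells (2.18, adjusted p = 0.00146). Scube3 rose in all but Sox1-FoxA2+ cells, Scube1 in Sox1+FoxA2- cells and Disp1, which exports the ligand, in Sox1-FoxA2- cells. Over the 8 comparisons of time in sorted cells, 13 of 196 tests of these genes were called, all higher at the later day, against 1.46% of the tests of all genes.

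The summed level of 5 genes of undifferentiated cells was 23366 to 67656 normalized counts at D0, 8778 to 28134 in D2 Sox1-FoxA2- cells and 1654 to 2216 in D2 Sox1-FoxA2+ cells. Its part in the rise of Gli3 and Ptch1 was not tested. The endoderm markers stood at 9000.4 to 34957 in D2 Sox1-FoxA2+ cells, the libraries with the most Ptch1, and at 359199.6 to 710988 in D6 Sox1-FoxA2+ cells, where Ptch1 had fallen.

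Of 13 further genes of the ventral neural tube and floor plate, 1 was called higher and 1 lower among 57 tests of Sox1-FoxA2+ against Sox1+FoxA2- cells, where 2.05% of all tests were called. These were Foxa2, itself the gate of the sort, higher in D6 progeny (log2 fold change 3.74, standard error 0.30, adjusted p = 4.4e-06), and the axon guidance gene Slit2, lower in D4 progeny (log2 fold change -1.75, standard error 0.41, adjusted p = 0.032). None of 22 tests of 7 motor neuron genes was called there. Among 15 genes of intermediate and dorsal domains, 3 of 57 tests were called, all for Pax6, lower in Sox1-FoxA2+ cells at D4, D6 and in D6 progeny (-3.84, -4.05 and -3.47 on the log2 scale).

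The genes whose mean level over the 19 conditions followed each of the 9 most closely were looked up among 29607 genes, with Pearson's r on log2 of normalized counts plus 1 as a description. Nearest to Gli3 were Setbp1 (r = 0.933) and Cdh2, which encodes N-cadherin (0.917). Nearest to Ptch1 were Smoc1 (0.846) and Prdm1 (0.842), to Gli2 Fmnl2 (0.863) and Pank1 (0.852), and to Hhip Col13a1 (0.868) and Epb41l4b (0.853). The nearest genes of the other 5, which had few counts, were mostly predicted genes, olfactory receptors and a histone gene, led by Gm21399 for Gli1 (0.878), Gm44691 for Nkx6-1 (0.840), Olfr1132 for Shh (0.825), Gm6270 for Nkx2-2 (0.812) and Olfr38 for Olig2 (0.774). These 5 were at 0 in between 18 (Gli1) and 46 (Shh) of the 57 libraries. Their r thus rests on few libraries with a count, and the matches are uncertain. Reads of multigene families, such as olfactory receptors and histones, can also be split between near-identical copies, which was not tested.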

How the data were processed

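Bulk RNA-seq libraries of small pools of cells were made from sorted populations and from the progeny of populations sorted at D2, as labelled by the submitters, with 3 biological replicates each. Alignment by the authors used STAR, with SAMtools for the alignment files, and featureCounts with GENCODE M21 gave the deposited raw counts, which carry no normalization. Versions and counting options are not given in the sources used here. Genes nested in another gene on either strand were at 0, as in a count over whole gene spans without strand, although the library kit keeps strand. For this reason no length-scaled level was computed, and genes were not compared with each other. The 92 lines naming spike-ins held 0.0% of the counts and were left out, and 0 value columns were unused.

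The 9 genes and all gene lists were chosen with earlier results of these data known. All genes were fitted with edgeR 4.0.16 in R 4.3.3 (TMM, filterByExpr with a minimum count of 10 and minimum total of 15, robust quasi-likelihood fit, two-sided tests), and an adjusted p under 0.05 (Benjamini-Hochberg over all genes of a comparison) was called. Populations of a day and arm shared a fit, and days of a population shared another. Normalized counts used DESeq2 1.42.0 size factors. Alternatives were DESeq2, no filter, a replicate block, other sets of libraries in the fit, each library or replicate number left out, TMM-scaled levels and, added after the data were seen, a non-robust fit and halved counts. The fits were tested on simulated data. Of the other lists, called genes are named, at most 6 per comparison by adjusted p, and 2 genes of most similar pattern per gene by the highest r; Tulp3, Evc, Cdon and Sufu were named after their values were seen. No label states that libraries are paired. Replicate numbers were taken to pair libraries where all 3 correlations of deviations from group means exceeded 0.1 over 5000 genes, which held in 13 of 38 comparisons (range -0.33 to 0.60). The replicate block covered all libraries of a fit, also where only some of its populations were taken as paired. Figures were drawn with matplotlib 3.10.9 and tables joined with pandas 2.3.3. Promoter windows come from RefSeq on GRCm38.p6, and 7 of the 9 genes matched.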

Additional observations from a re-analysis of the deposited data

Results flagged for a closer look

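Gli1 differed in opposite directions at D2 and at D4 when Sox1-FoxA2+ cells were set against Sox1+FoxA2- cells. At D2 each of the 3 Sox1-FoxA2+ libraries was above each of the 3 Sox1+FoxA2- libraries (log2 fold change 2.12), and at D4 each was below (log2 fold change -1.83). Neither was called (adjusted p = 1 by the quasi-likelihood test of edgeR, adjusted after Benjamini and Hochberg at both days), all values were at or under 344 normalized counts, and 62.8% of the exon bases of Gli1 lie in the span of another gene. Whether the difference changed between D2 and D4 was not tested.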

How the results depend on the processing

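Of the 13 calls on the 9 genes, all 13 remained with DESeq2 and with the replicate block, and none of the 13 changed its direction under any alternative tried. The 13 were picked by edgeR from the same counts, so that this is no independent support. The share of all genes called under each alternative is not given here, so that gains of the 9 genes cannot be set against those of all genes. The number of called tests of the 9 genes moved by over 1.5 times under these alternatives. For Sox1-FoxA2+ against Sox1+FoxA2- cells it was 2, and it became 7 with DESeq2's Wald test, 7 without a filter on low counts, 6 with the replicate block, 4 with only the groups compared, 1 with all 57 libraries in 1 fit, and 0 to 3 without 1 replicate number. For Sox1+FoxA2+ cells against single-positive populations it was 0, and it became 6 with DESeq2, 5 without a filter, 4 with the replicate block and 0 to 3 without 1 replicate number. For Sox1+FoxA2- against Sox1-FoxA2- cells it was 0, and 1 with DESeq2. For time in sorted cells it was 4, and it became 10 with DESeq2, 8 without a filter and 7 with all 57 libraries in 1 fit. For progeny against D2 cells it was 6, and 12 with DESeq2. For progeny against sorted cells of the same day it was 1, and it became 7 with DESeq2, 6 without a filter, 3 with only the groups compared, 2 with all 57 libraries, 2 with halved counts and 0 to 3 without 1 replicate number. For the change of a difference from D2 to D6 it was 0, and it became 2 with DESeq2, 2 without a filter and 0 to 1 without 1 replicate number. The cause of these shifts was not tested. The replicate block called 8 further tests, of which 3 stood where the numbers were not taken to pair the libraries. These were Ptch1 at D2 for Sox1-FoxA2+ against Sox1+FoxA2- cells (adjusted p = 0.00234), Gli3 between their D6 progeny (0.0128) and Gli2 at D4 for Sox1+FoxA2+ against Sox1-FoxA2+ cells (0.0172). In that Gli3 comparison the lowest correlation between libraries was 0.0983, just under the limit of 0.1. Of the levels per condition, none moved by more than 1 SD with TMM scaling. Leaving out 1 of 3 replicates cannot move a mean by more than 1 SD, so that this check could not fail and shows nothing about the levels.

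Depth limits mainly Shh, Gli1, Nkx2-2, Nkx6-1 and Olig2, which were at 0 in between 18 (Gli1) and 46 (Shh) of the 57 libraries, and for Shh, Gli1 and Nkx2-2 the counting over gene spans limits them too. For these genes the absence of a call does not show equal levels.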
